A study of Mus musculus with 17 samples.

Results

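The Frizzled genes of cultured mouse retinal progenitor cells were followed by RNA-seq over 7 days with and without bFGF and CHIR99021. The 10 genes Fzd1 to Fzd10 were taken by their symbols from the deposited gene tables, which list 18836 genes in at least 1 of 17 libraries. All 10 were listed at least once, and 8 of them reached a mean of at least 1 FPKM (fragments scaled to the length of the transcript and to the depth of the library) in the 16 cultured libraries. The cells, named mNRPCs, came from the neural retina of adult C57BL/6 mice and had been expanded in medium holding both agents before the experiment. They were then kept in basic medium (BM), in BM with bFGF (B), in BM with CHIR99021 (C) or in BM with both (BC), and sampled on days 1, 3, 5 and 7, beside 1 control library of day 0, which the study describes as cells in BM. bFGF is a growth factor that acts through FGF receptors, and CHIR99021 is a small molecule inhibitor of GSK-3, the kinase that marks β-catenin for destruction. The study asked what each agent does in the self-renewal of these cells. Each treatment and day is 1 library, so no value has a replicate of its own, and the sources used here give neither the number of animals nor whether the libraries came from separate cultures.

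Frizzled proteins are receptors that cross the membrane 7 times and bind Wnt ligands through a cysteine-rich domain outside the cell. With the co-receptors Lrp5 and Lrp6 they pass the signal on to Dishevelled and stabilize β-catenin, and with Ror or Ryk, or with Vangl and Celsr proteins, they act without β-catenin on calcium, cell shape and planar polarity. By sequence they fall into 4 subgroups, Fzd1, Fzd2 and Fzd7, then Fzd5 and Fzd8, then Fzd4, Fzd9 and Fzd10, and then Fzd3 and Fzd6. In the eye, Fzd5 is known for its role in the optic vesicle and early retinal progenitors, and Fzd4 for binding Norrin during the growth of retinal vessels.

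The libraries were of even depth, with 17571973 to 19428744 expected counts. Of 5 retinal progenitor markers, Pax6, Six3, Sox2 and Nes were present throughout, with summed levels of 75.6 to 201 FPKM with bFGF and 139 to 352 FPKM without it, while Rax stayed under 0.1 FPKM. Of the 4 tested, 3 were called lower with bFGF and 0 higher (33.9% of all genes tested were called lower). The 5 markers of Mueller glia and astrocytes, mainly Glul, summed to 15.6 to 32.7 FPKM with bFGF and 13.0 to 19.5 FPKM without it. Glul, the only 1 of them tested, was called higher with bFGF (34.6% of all genes tested were called higher). The other 4 were too low to be tested and had lower mean levels with bFGF than without it. These were 0.035 against 0.751 FPKM for Aqp4, 0.0125 against 0.065 for Gfap, 0.019 against 0.06 for Rlbp1 and 0 against 0.00875 for Slc1a3. The list thus does not go one way. The 4 pericyte and fibroblast markers summed to 6.11 to 34.4 FPKM with bFGF and to 14.8 to 158 FPKM without it. Of the 4, 3 (Pdgfrb, Col1a1 and Dcn) were called lower with bFGF, against 33.9% of all genes tested. Col1a1 and Dcn reached a mean of 1 FPKM only through the libraries without bFGF, so these 2 had to differ. The markers of photoreceptors, retinal pigment epithelium, endothelium and microglia summed to at most 2.47 FPKM in any library. Fewer cells of a type and less RNA per cell cannot be told apart in such bulk libraries, and the part of any of these cell types in the Frizzled differences was not tested.

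For 6 of the 10 genes the RefSeq promoter table of the GRCm38.p6 build holds a sequence, and the 250 bases before the start of 4 of them are printed because these genes moved with bFGF, Fzd4, Fzd5 and Fzd7 toward higher and Fzd1 toward lower levels. Capitals mark each GC box (GGGCGG, or CCGCCC on the other strand) and each core of a TCF/LEF site, the site of the β-catenin partners (CTTTGA or CTTTGT, or TCAAAG or ACAAAG on the other strand).
Fzd4, chr7:89404116-89404365, plus strand: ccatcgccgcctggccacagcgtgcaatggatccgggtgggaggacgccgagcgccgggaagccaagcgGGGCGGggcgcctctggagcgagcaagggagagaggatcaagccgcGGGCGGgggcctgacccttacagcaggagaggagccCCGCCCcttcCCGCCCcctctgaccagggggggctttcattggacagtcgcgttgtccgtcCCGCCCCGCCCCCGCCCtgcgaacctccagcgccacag
Fzd5, chr1:64737751-64738000, minus strand: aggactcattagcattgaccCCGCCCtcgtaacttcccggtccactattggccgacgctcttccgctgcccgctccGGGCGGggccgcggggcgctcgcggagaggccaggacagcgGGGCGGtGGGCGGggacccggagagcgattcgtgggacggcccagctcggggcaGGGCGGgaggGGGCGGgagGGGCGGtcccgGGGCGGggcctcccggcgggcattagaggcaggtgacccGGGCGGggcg
Fzd7, chr1:59481897-59482146, plus strand: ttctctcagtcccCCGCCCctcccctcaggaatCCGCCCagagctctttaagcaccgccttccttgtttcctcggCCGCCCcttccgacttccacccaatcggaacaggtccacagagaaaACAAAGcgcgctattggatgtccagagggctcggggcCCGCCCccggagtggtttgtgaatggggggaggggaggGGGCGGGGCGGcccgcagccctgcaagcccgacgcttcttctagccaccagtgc
Fzd1, chr5:4758217-4758466, minus strand: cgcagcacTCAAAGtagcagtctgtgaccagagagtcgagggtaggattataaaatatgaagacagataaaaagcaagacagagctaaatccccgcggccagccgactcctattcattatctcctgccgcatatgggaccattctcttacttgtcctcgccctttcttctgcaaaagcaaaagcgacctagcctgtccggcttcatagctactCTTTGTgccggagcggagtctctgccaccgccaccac
The 3 windows of the genes that were higher with bFGF hold 7, 9 and 6 GC boxes in the order Fzd4, Fzd5 and Fzd7, counting overlapping letters, and their G and C content was 72.8%, 76.4% and 65.2%. Of 32851 RefSeq promoters of the same length, 32.7% hold at least 1 GC box and 0.886% hold 6 or more, and the median G and C content was 52.4%. The Fzd1 window has no GC box, a G and C content of 51.2% and 2 TCF/LEF cores, while Fzd7 has 1 such core and Fzd4 and Fzd5 have none. The Fzd1 window also holds 1 run of the TATA letters (TATAAA), not marked in capitals. It lies nearer the far end of the window than the start of the gene, so no TATA promoter is read from it. A TCF/LEF core occurs in 27.6% of all promoters, 2 or more occur in 5.15%, and the TATA letters occur in 12.4%. The windows of Fzd9 and Fzd10 hold 1 GC box each. These matches describe letters in the windows and the share was set after the counts were seen. Fzd2, Fzd3, Fzd6 and Fzd8, which were also lower with bFGF, have no sequence there. Fzd1 thus stands alone for the lower genes, and the windows do not compare higher with lower genes. Of the higher genes, Fzd4 reached a mean of 1 FPKM only through the libraries with bFGF, and the call on Fzd7 depends on the scaling.

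On the deposited FPKM scale, which is per transcript length and so allows genes to be compared, Fzd7 and Fzd6 were the most abundant members. Over the 17 libraries the median level was 30.9 FPKM for Fzd7, 17.9 for Fzd6, 13.8 for Fzd2, 4.22 for Fzd1, 4.16 for Fzd8, 3.81 for Fzd5, 1.22 for Fzd4 and 1.14 for Fzd3. Neighbors in this order often changed places. Fzd7 lay above Fzd6 in 7 of 17 libraries, Fzd1 above Fzd8 in 9, Fzd8 above Fzd5 in 11 and Fzd4 above Fzd3 in 8, whereas Fzd2 lay above Fzd1 and Fzd5 above Fzd4 in all 17. Fzd9 did not exceed 0.33 FPKM, which is 13 expected counts in BC on day 1 (exact Poisson 95% interval 6.92 to 22.2, counting error only). Fzd10 was seen as 1 expected count, in BM on day 3, and was not listed elsewhere. The deposited counts of Fzd3 were not whole in 17 of 17 libraries, those of Fzd6 in 14 and those of Fzd1, Fzd2 and Fzd7 in 9 each, and they departed from a whole number by at most 0.45 of a read. Neither Fzd9 nor Fzd10 passed the filter on low values. Over the 8 same-day pairs with and without bFGF, Fzd9 differed by 0.079 ± 0.154 in log2(FPKM + 1) (SD, n = 8 pairs, exact two-sided sign-flip p = 0.188), and Fzd10 differed in 1 pair, by its single count. Relative to the median gene both gave an exact p of 0.00781, for Fzd10 by the shift of the median gene, so nothing is read from these values.

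The make-up of Frizzled mRNA differed between media with and without bFGF. In the day 0 control, Fzd6 made up 30.5% of the summed Frizzled FPKM, Fzd7 23.5% and Fzd2 22.5%. On day 7 the shares of Fzd6 and Fzd7 were 37.0% and 30.2% in BM and 46.1% and 25.9% in C, but 2.46% and 82.3% in B. In BC they were 6.67% and 69.9%. Fzd6 ranked first in 8 of 8 cultured libraries without bFGF, and Fzd7 ranked first in 7 of 8 with bFGF, BC on day 3 being the exception. Fzd4, Fzd5 and Fzd7 together made up 27.8% on day 0, and on day 7 their share was 94.1% in B, 88.3% in BC, 35.0% in BM and 28.9% in C. The summed level went from 41.5 FPKM on day 0 to 110.2 (BM), 129.7 (C), 79.0 (B) and 50.4 FPKM (BC) on day 7. These shares are descriptive and carry no test, since Fzd7 alone sets much of them.

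**Figure D1:**
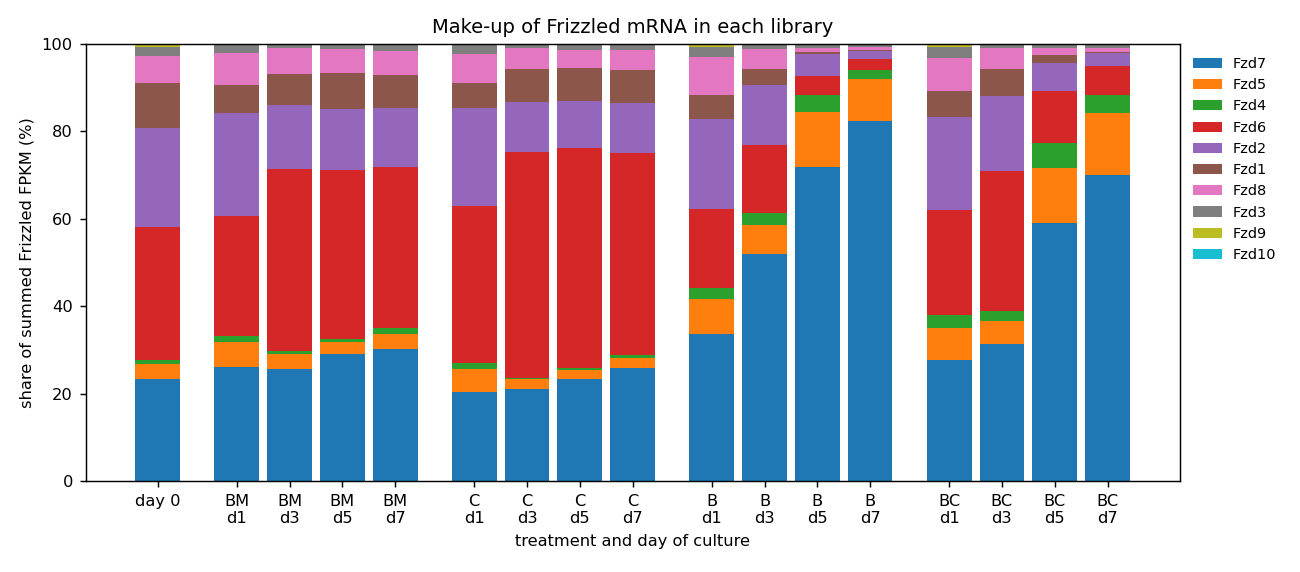
Share of each Frizzled gene (%, stacked) in the summed Frizzled FPKM of each of the 17 libraries, by treatment and day. On day 7 Fzd7 takes 82.3% of B, 69.9% of BC, 30.2% of BM and 25.9% of C, and in the last pair Fzd6 is the larger.

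The effect of bFGF was estimated with edgeR over the 16 cultured libraries, with the day and CHIR99021 as further terms, on counts scaled by TMM. All 8 tested Frizzled genes passed the adjusted p of 0.05, but so did 68.4% of all 11272 genes tested, so that passing does not set the family apart. Of the 8, 5 were lower with bFGF (33.9% of all genes were called lower) and 3 were higher (34.6% called higher). The median log2 fold change of the 8 was -1.07, against -0.0023 for all genes, a value that TMM centers (-0.29 with scaling to the total count). With 5 lower and 3 higher, the median of the 8 does not describe a shift shared by the family. Fzd3 reached the filter of 1 FPKM only through the libraries without bFGF (mean 1.43 FPKM, against 0.699 with it) and Fzd4 only through those with it (2.06 against 0.841), so these 2 had to differ and their calls add nothing to the count. The spread behind these tests is the departure of single libraries from additive effects, not the spread between repeated cultures. In the libraries with bFGF the median gene was also lower by FPKM in all 8 pairs, by 0.03 to 0.50 on the log2(FPKM + 1) scale. Whether this is a shift of composition or a broad change in level was not tested, and TMM centers it in either case. With scaling to the total count alone, the share of called genes that were higher with bFGF was 28.2% in place of 50.5%, and Fzd7 no longer passed (log2 fold change 0.21, adjusted p = 0.116), while the other 7 kept their call and direction.

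Fzd1, Fzd2 and Fzd7, which are close relatives and are each encoded by a single exon, went separate ways with bFGF. Fzd7, a receptor known from stem and progenitor cells, stood at 9.74 FPKM on day 0. It climbed in B from 16.31 through 38.4 and 54.68 to 65.01 FPKM on days 1, 3, 5 and 7, and in BC from 12.65 through 25.24 and 34.23 to 35.25 FPKM. Without bFGF it reached 17.04, 30.92, 36.18 and 33.27 FPKM in BM and 14.22, 28.74, 30.89 and 33.63 FPKM in C. Only B on days 3, 5 and 7 lay above every library without bFGF, and the ranges overlap otherwise. The edgeR estimate over all days was a log2 fold change of 0.50 (SE 0.16, adjusted p = 0.0133), with 5 of 8 same-day pairs higher. On the deposited scale the mean pair difference in log2(FPKM + 1) was 0.21 ± 0.39 (SD, n = 8 pairs, exact two-sided sign-flip p = 0.211), so the call on Fzd7 rests on the scaling.

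Fzd1, a receptor for several Wnts, took the opposite course. It stood at 4.26 FPKM on day 0 and rose to 8.27, 10.23 and 8.39 FPKM in BM and 10.13, 9.89 and 9.77 FPKM in C on days 3, 5 and 7. With bFGF it was at 2.66, 2.67, 0.38 and 0.21 FPKM in B and at 2.78, 5.04, 1.05 and 0.18 FPKM in BC on days 1, 3, 5 and 7. In BC it thus rose above day 0 on day 3 before it fell. The ranges with and without bFGF overlap through that library, which lay above BM (4.22) and C (3.93) on day 1. The day 7 values rest on 17 expected counts in B (exact Poisson 95% interval 9.90 to 27.2) and 14 in BC (7.65 to 23.5), against 801 in C. The log2 fold change with bFGF was -2.34 (SE 0.54, adjusted p = 0.00252), and 8 of 8 pairs were lower. Fzd2 (chr11:102604431-102608058, plus strand, 1 exon), which binds Wnt5a among other ligands, was at 14.35 to 17.64 FPKM in the 8 libraries without bFGF and at 1.44 to 13.8 FPKM in the 8 with it, with medians of 15.4 and 6.68. These ranges do not overlap. Its log2 fold change was -1.31 (SE 0.29, adjusted p = 0.00181), and on day 7 both B and BC were at 1.44 FPKM and both BM and C at 14.81 FPKM.

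Fzd5 and Fzd8, the next pair of relatives, also parted. Fzd5 rose in B to 9.57 FPKM on day 5 and 7.64 on day 7 and in BC to 7.36 and 7.17, while it stayed between 2.90 and 4.04 FPKM in every cultured library without bFGF. Its log2 fold change was 1.01 (SE 0.22, adjusted p = 0.00188), and 7 of 8 pairs were higher. In GENCODE M21, Gm38058 overlaps Fzd5 on the opposite strand, Gm26704 overlaps Fzd6 and Gm9086 overlaps Fzd3 likewise, and Gm27263 lies within Fzd3 on its own strand. Since the sources used here give no strand setting, reads from the overlaps cannot be told apart. Fzd8 was at 4.66 to 7.16 FPKM without bFGF and at 0.49 to 4.16 FPKM with it, and these ranges do not overlap. On day 7 it stood at 0.55 FPKM (B) and 0.49 FPKM (BC), with a log2 fold change over all days of -1.55 (SE 0.34, adjusted p = 0.00174). Fzd2 and Fzd8 were thus 2 of 8 tested members whose libraries with and without bFGF were apart, against 5.83% of all genes tested.

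Fzd6 and Fzd3, which are known for planar polarity in skin and for axon guidance, were both lower with bFGF. Fzd6 (chr15:39006149-39038192, plus strand, 7 exons) stood at 12.65 FPKM on day 0 and reached 50.13, 47.85 and 40.72 FPKM in BM and 69.98, 66.27 and 59.81 FPKM in C on days 3, 5 and 7. In B it was 11.6, 3.29 and 1.94 FPKM and in BC 25.74, 6.82 and 3.36 FPKM on the same days. With a log2 fold change of -2.39 (SE 0.35, adjusted p = 0.000203) it had the most negative estimate of the family, beside that of Fzd1. Fzd3 (chr14:65192441-65262463, minus strand, 7 exons) was a low gene, at 1.14 to 1.84 FPKM without bFGF and 0.38 to 1.16 FPKM with it, so that the ranges overlap only through B on day 1 and BM on day 3. Its log2 fold change was -0.82 (SE 0.16, adjusted p = 0.000861). After quantile normalization of log2(FPKM + 1), Fzd3 no longer passed (-0.11, adjusted p = 0.330 in limma). It passed the filter through the side where it is higher. Its estimate without a filter was also -0.82, but its own counts are the same in that fit, so this does not bear on the selection.

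Fzd4, the Norrin receptor, was a low gene that was higher with bFGF. It stood at 0.37 FPKM on day 0, which is 27 expected counts (exact Poisson 95% interval 17.8 to 39.3). With bFGF it was 1.22, 2.09, 2.96 and 1.64 FPKM in B and 1.37, 1.80, 3.31 and 2.11 FPKM in BC on days 1, 3, 5 and 7, and without it 0.39 to 1.43 FPKM. The ranges overlap by the day 1 values of B and BC and the day 7 value of BM. The log2 fold change was 1.58 (SE 0.27, adjusted p = 0.000503), and 8 of 8 pairs were higher, in a gene that passed the filter through the libraries with bFGF. Without a filter the estimate was also 1.58, from the same counts of Fzd4, which does not bear on the selection. In all, 6 of the 8 tested members (Fzd1, Fzd2, Fzd3, Fzd6 and Fzd8 lower, Fzd4 higher) moved one way in all 8 pairs, each with the smallest exact p that 8 pairs allow, 0.00781, and 36.7% of all genes tested did so. Fzd3 and Fzd4 passed the filter through the side where they are higher, so these 2 add nothing to this count either.

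**Figure D2:**
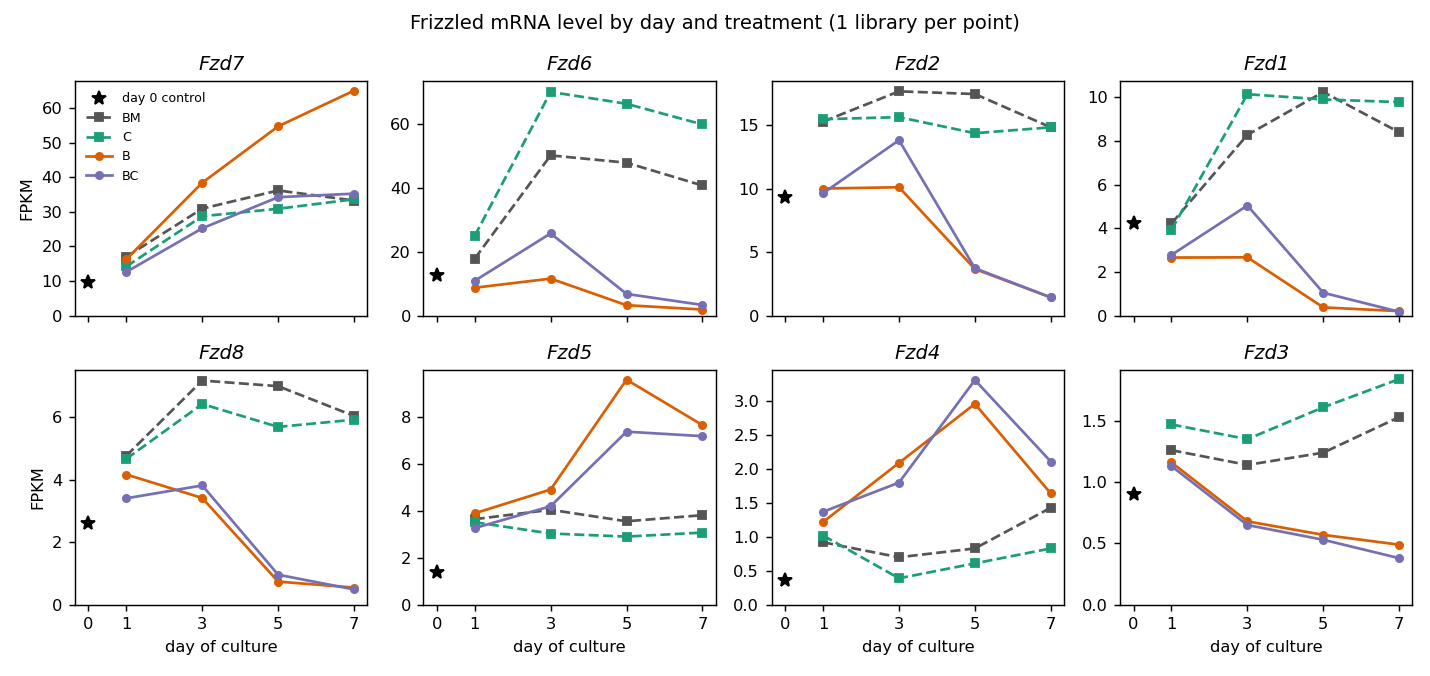
Level of 8 Frizzled genes (FPKM, linear axis from 0) against the day of culture, with 1 library per point, squares and dashed lines for media without bFGF and circles and solid lines for media with it. Fzd1, Fzd2, Fzd6 and Fzd8 end under 4 FPKM with bFGF, Fzd7 reaches 65.01 FPKM in B, and Fzd5 and Fzd4 are higher with bFGF on days 3, 5 and 7.

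The bFGF effect grew with the day. In a model with a bFGF term for each day, 2 of the 8 members passed on day 1 (10.7% of all genes), 7 on day 3 (50.4%), 8 on day 5 (75.8%) and 8 on day 7 (78.4%). The counts of days 3, 5 and 7 include Fzd3 and Fzd4, which had to differ by the filter. The first to differ were Fzd6 (log2 fold change on day 1 -1.04, SE 0.16, adjusted p = 0.00239) and Fzd2 (-0.56, SE 0.13, adjusted p = 0.0208). Fzd2 lost its day 1 call when any of the 4 day 1 libraries was left out (adjusted p 0.0793 to 0.176). Its day 3 value of -0.38 (adjusted p = 0.0289) was -0.14 without B day 3 (adjusted p = 0.377), -0.28 without BM day 3 (adjusted p = 0.209) and -0.64 without BC day 3. Fzd5 on day 3 (0.46, adjusted p = 0.00392) was at 0.38 without C day 3 (adjusted p = 0.05002, just over the threshold).

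By day 7 the differences were large. The log2 fold change with bFGF was -5.00 for Fzd1 (SE 0.36), a 32.0-fold lower level, -3.77 for Fzd6 (SE 0.18), -2.96 for Fzd8 (SE 0.18), -2.81 for Fzd2 (SE 0.16) and -1.42 for Fzd3 (SE 0.17). Fzd5 was higher by 1.66 (SE 0.11), Fzd4 by 1.29 (SE 0.27) and Fzd7 by 1.06 (SE 0.18), and the largest adjusted p of these 8 tests was 0.000869, for Fzd4. By FPKM the day 7 difference of Fzd7 lay in 1 pair, with 65.01 in B against 33.27 in BM but 35.25 in BC against 33.63 in C. Fzd4 and Fzd5 had their highest estimates on day 5 (2.58 and 1.83) and not on day 7. The term for a change of the bFGF effect with the day passed for 8 of 8 members and for 76.3% of all genes. With total count scaling, Fzd7 did not pass on day 5 (0.38, adjusted p = 0.0673) nor in this term (adjusted p = 0.109). After quantile normalization, Fzd3 lost its calls on days 5 (0.12) and 7 (-0.15) and in this term (adjusted p = 0.119).

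**Figure D3:**
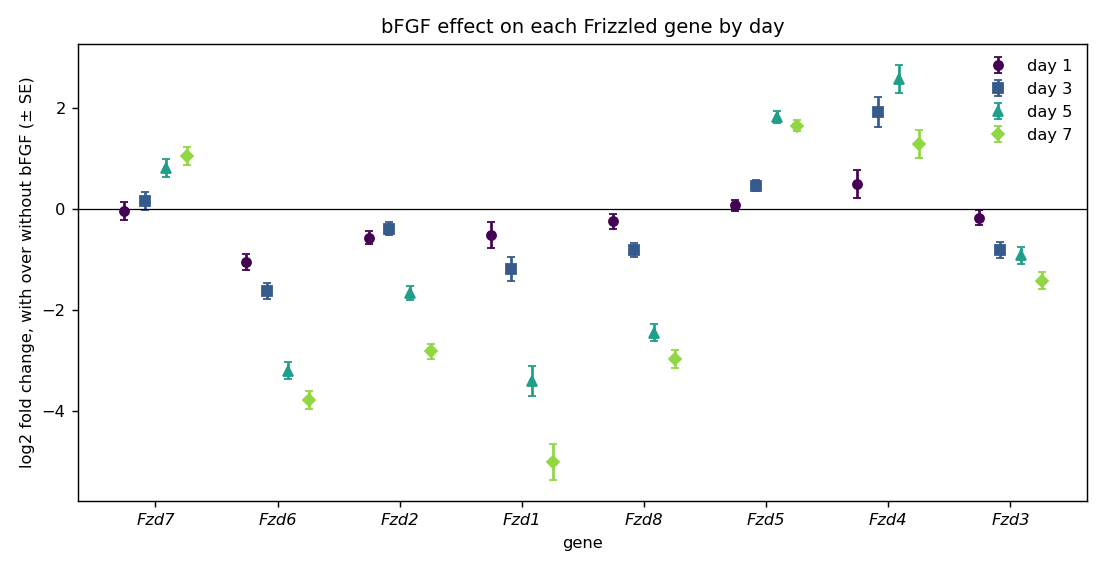
Log2 fold change with over without bFGF (± SE from edgeR) for 8 Frizzled genes on days 1, 3, 5 and 7. Fzd1, Fzd2, Fzd6, Fzd8 and Fzd3 lie below 0 and reach -5.00 for Fzd1 on day 7, and Fzd5, Fzd4 and Fzd7 lie above 0 on days 5 and 7.

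The course from day 1 to day 7 was read in the media with and without bFGF. Without bFGF, 3 of the 8 members passed (63.8% of all genes did), and all 3 rose, Fzd6 by 1.17 (SE 0.15), Fzd1 by 1.12 (SE 0.24) and Fzd7 by 1.09 (SE 0.18) on the log2 scale. Fzd8 was at 0.32 (adjusted p = 0.0623) and passed when BC day 3, BC day 5 or B day 5 was left out (adjusted p 0.0424 to 0.0475). With bFGF, 8 of 8 members passed (75.3% of all genes did). Fzd7 rose by 2.19 (SE 0.18), Fzd5 by 1.498 (SE 0.11) and Fzd4 by 0.98 (SE 0.27). The others fell, Fzd1 with a log2 fold change of -3.37 (SE 0.39), Fzd8 of -2.40 (SE 0.18), Fzd2 of -2.33 (SE 0.16), Fzd6 of -1.56 (SE 0.17) and Fzd3 of -0.97 (SE 0.17). The rise of Fzd4 was 0.64 without BC day 7 (adjusted p = 0.0925) and 0.80 without B day 1 (adjusted p = 0.0607), and 0.54 with total count scaling (adjusted p = 0.0828). The fall of Fzd3 was -0.25 after quantile normalization (adjusted p = 0.131). Fzd7 is the member that rose in both sets of media.

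Against day 0, which is 1 library and allows no test, Fzd4, Fzd5 and Fzd7 were higher in 16 of 16 cultured libraries. On day 7 in BM the ratio to day 0 was 3.42 for Fzd7, 3.22 for Fzd6, 3.86 for Fzd4, 2.70 for Fzd5, 2.31 for Fzd8, 1.97 for Fzd1, 1.70 for Fzd3 and 1.59 for Fzd2, so that every tested member was above day 0. On day 7 in B it was 6.67 for Fzd7, 5.42 for Fzd5 and 4.43 for Fzd4, while day 0 exceeded B by 20.3-fold for Fzd1, 6.52-fold for Fzd6, 6.48-fold for Fzd2, 4.75-fold for Fzd8 and 1.84-fold for Fzd3.

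CHIR99021 gave fewer calls than bFGF. With the day, bFGF and CHIR99021 as terms, 0 of 8 members passed in edgeR, as did 0.337% of all genes (38 of 11272, with 1126 at an unadjusted p under 0.05), and none passed under limma or under DESeq2, which called 281 genes. At an unadjusted p under 0.05 there was 1 member, Fzd7 (log2 fold change -0.40, SE 0.16, unadjusted p = 0.0244, adjusted p = 0.393). The spread of that model holds the change of the bFGF effect with the day, and its biological coefficient of variation was 24.7%, against 10.04% with a bFGF term for each day. In the latter model, added after the values were seen, 3 of 8 members passed, as did 19.5% of all genes. Fzd6 was higher with CHIR99021 (log2 fold change 0.61, SE 0.08, adjusted p = 0.000658), and Fzd7 (-0.38, SE 0.09, adjusted p = 0.0118) and Fzd5 (-0.24, SE 0.05, adjusted p = 0.0102) were lower.

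The same 3 genes had the lowest exact p in the pairs of libraries that differ only in CHIR99021. These are the libraries of the fits above, so the pairs are not separate evidence. Their exact p are not adjusted over the 8 genes compared. Fzd6 was higher with it in 8 of 8 pairs, at 24.96 against 17.85, 69.98 against 50.13, 66.27 against 47.85 and 59.81 against 40.72 FPKM in C and BM on days 1, 3, 5 and 7. With bFGF present the values were 10.91 against 8.75, 25.74 against 11.6, 6.82 against 3.29 and 3.36 against 1.94 FPKM in BC and B. The mean difference in log2(FPKM + 1) was 0.59 ± 0.26 (SD, n = 8 pairs, exact two-sided sign-flip p = 0.00781). Fzd5 was lower in 8 of 8 pairs, by a mean of -0.20 ± 0.10 (SD, n = 8 pairs, exact p = 0.00781), and 13.6% of all genes moved one way in all 8 CHIR99021 pairs. Fzd7 was lower in 7 of 8 pairs (-0.38 ± 0.30, SD, n = 8 pairs, exact p = 0.0156), with 35.25 FPKM in BC against 65.01 in B on day 7 and 33.63 in C against 33.27 in BM. Without day 1 the exact p of Fzd7 over 6 pairs was 0.0625. The other 5 tested members gave exact p from 0.102 to 0.969.

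Whether the CHIR99021 difference depends on bFGF was tested as an interaction. In edgeR 0 of 8 members passed, and 1 gene of 11272 (0.00887%) did, with 178 at an unadjusted p under 0.05. None of the members passed under DESeq2 or limma. With a bFGF term for each day, again added later, 0.692% of all genes and no member passed, Fzd7 being nearest (-0.50, SE 0.11, adjusted p = 0.0645). In the pairs, the CHIR99021 difference of Fzd7 was -0.86 to -0.34 with bFGF and -0.25 to 0.02 without it, and that of Fzd3 was -0.11 to -0.02 with bFGF and 0.13 to 0.22 without it. Both sets are apart, as they are in 6.33% of all genes tested (exact two-sided permutation p = 0.0286, the smallest that 4 pairs against 4 allow, among 8 genes compared after the values were seen). Since the sets share their days, signs were also flipped within the 4 days, where both gave the smallest possible exact p of 0.125. For Fzd6 the mean was 0.70 ± 0.35 with and 0.49 ± 0.04 without bFGF (SD, n = 4 pairs each, exact permutation p = 0.314).

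**Figure D4:**
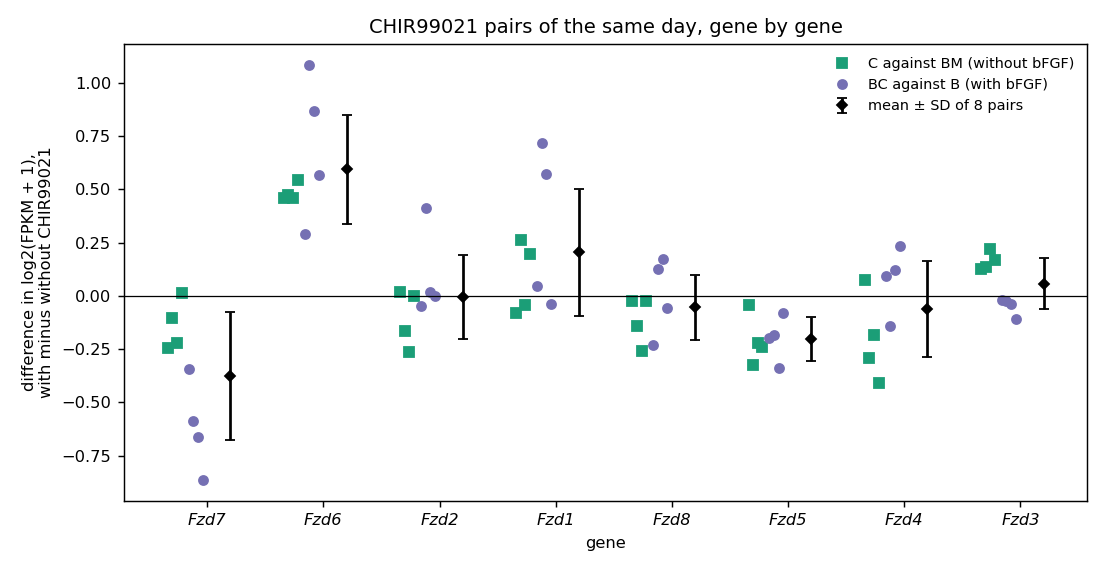
Difference in log2(FPKM + 1) with minus without CHIR99021 in the 8 same-day pairs, squares for C against BM and circles for BC against B in the order of days 1, 3, 5 and 7, with the mean ± SD of the 8 pairs as diamonds. All 8 points of Fzd6 lie above 0 and all 8 of Fzd5 below it, and for Fzd7 the pairs with bFGF reach -0.86.

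The partners that Frizzled receptors work with were counted on a list of 53 genes, of which 24 passed the filter. With bFGF, 19 of the 24 were lower, 2 were higher and 3 did not pass (68.4% of all genes passed and 33.9% were called lower), with a median log2 fold change of -0.70. Of the 24, 5 (Celsr1, Wnt5b, Wnt7a, Ror1 and Ptk7) reached the filter only through the libraries without bFGF, the side where they are higher, so that these 5 had to differ. CHIR99021 gave 0 calls among them (0.337% of all genes), and 3 in the model with a bFGF term for each day (Celsr1 higher, Vangl2 and Shisa4 lower), in which 19.5% of all genes passed. Of 19 Wnt ligands 5 passed the filter, and all 5 were called lower with bFGF, of which Wnt5b and Wnt7a are among those that had to differ. Wnt7b, the most abundant, was at 41.3 to 77.3 FPKM with bFGF and 48.9 to 353 without it, and Wnt5a, the ligand of the calcium branch, at 1.93 to 21.4 with it and 19.8 to 46.0 without it (log2 fold change -1.96, SE 0.40, adjusted p = 0.00121). The others were Wnt5b (-1.38), Wnt7a (-2.74) and Wnt9a (-2.24). Porcn, which loads Wnts with their lipid, was at 3.79 to 15.6 FPKM with bFGF (median 8.475) and 6.11 to 282 without it (median 179). These ranges overlap (log2 fold change -3.30). Wls, which carries Wnts to the surface, was lower with bFGF as well (-0.71).

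Among 6 co-receptors, Ror1 (-2.87), Ptk7 (-1.32) and Ryk (-0.59) were lower with bFGF. Lrp6, the β-catenin branch co-receptor, was at 7.66 to 15.0 FPKM throughout and did not pass over all days (0.01, SE 0.08, adjusted p = 0.872). With a bFGF term for each day, 1 of the 4 tested co-receptors was called higher on day 5, and none on days 1, 3 and 7. Lrp5 did not exceed 0.17 FPKM, and Ror2, a co-receptor for Wnt5a, was listed in 1 of 17 libraries, at 0.01 FPKM. The Norrin arm of Fzd4 was near 0, with Ndp (Norrin) at up to 0.20 FPKM and its helper Tspan12 at up to 0.09. Of the Dishevelled adaptors, Dvl1 was higher (0.52), Dvl3 lower (-0.69) and Dvl2 did not pass (0.06, adjusted p = 0.466). The 5 tested planar polarity genes were all called lower, against 33.9% of all genes. Celsr1 (-2.92), which passed the filter through the side where it is higher, had a median of 0.14 FPKM with bFGF, and the others were Prickle1 at -0.86, Vangl2 at -0.46, Prickle2 at -0.41 and Vangl1 at -0.35.

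Of 9 genes that govern how much receptor stays at the surface, 7 were under the filter. Of the 2 tested, Znrf3 and Lgr4, 1 passed over all days. With a bFGF term for each day, both were called lower on days 3 and 7. Neither passed on days 1 and 5. Of all genes, 50.4% passed on day 3 and 78.4% on day 7. Znrf3, a ubiquitin ligase that removes Frizzled proteins, was at 1.52 to 3.92 FPKM. It did not pass over all days (-0.25, adjusted p = 0.127), and its relative Rnf43 did not exceed 0.03 FPKM. Lgr4, the R-spondin receptor that restrains these ligases, was lower with bFGF (-0.54, adjusted p = 0.00141). Of the Shisa proteins, some of which hold Frizzled receptors back in the endoplasmic reticulum, Shisa5 was higher (0.57) and Shisa4 lower (-1.67). Smo, the Hedgehog receptor of the wider Frizzled class, was lower (-0.40). Rspo2 and Wnt3a were listed in no library.

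Across the 17 libraries, Fzd1, Fzd2, Fzd6 and Fzd8 followed each other, with Pearson r of log2(FPKM + 1) from 0.89 to 0.98 between any pair. Fzd3 went with them (0.82 to 0.87), Fzd4 and Fzd5 went together (0.86), and Fzd7 was nearest to Fzd5 (0.73) and farthest from Fzd2 (-0.44). The genes most like each member over all 11258 genes with a mean of at least 1 FPKM were 2700081O15Rik, Tmem57 and Brf1 for Fzd1 (r 0.99), Btbd6, Fbxo46 and Tbk1 for Fzd2 (0.98 to 0.99) and Ndst2, Zfp318 and Plekhg2 for Fzd8 (0.99). They were Dctn1, Tmem98 and Kctd1 for Fzd6 (0.98 to 0.99), Slc25a44, Tgfbrap1 and Abhd5 for Fzd3 (0.96 to 0.97), Stx7, Smim14 and Sgpl1 for Fzd7 (0.96), Zbtb34, Pbx4 and Rab9 for Fzd5 (0.94 to 0.95) and Tmem263, Pgm3 and Lman1 for Fzd4 (0.93 to 0.95). All these libraries share the bFGF and day structure of the design, so the likeness is a description and has no test.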

How the data were processed

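The 17 poly-A RNA-seq libraries were sequenced on the BGISEQ-500 platform. The authors state mapping with Bowtie 2 and FPKM values from eXpress, while the submitters' processing notes list Bowtie2, RSEM and the mm10 build. The program behind the deposited expected counts is thus not settled, and versions are not given in the sources used here. The authors deposited an expected count and an FPKM value per gene, listed from 0.01 FPKM, and a gene not listed was read as 0. Totals ran from 17571973 to 19428744 expected counts. Groups came from the sample titles.

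Rounded expected counts went into edgeR 4.0.16 (R 4.3.3; TMM, glmQLFit, glmQLFTest). The 11272 genes that averaged 1 FPKM or more in the 16 cultured libraries were tested, with a Benjamini-Hochberg adjusted p threshold of 0.05, with the day, bFGF and CHIR99021 as terms, with their interaction, or with a bFGF term for each day. Same-day pairs were compared on log2(FPKM + 1) by flipping signs in an exact permutation test, two-sided. The fits were tested on simulated data. Alternatives were no filter or a minimum of 5 FPKM, DESeq2 size factors or total counts in edgeR, DESeq2 1.42.0, limma 3.58.1 on log2(FPKM + 1), on log2(FPKM + 0.1) and after quantile normalization, leaving out day 1 or each library, and, chosen after seeing the data, CHIR99021 and interaction terms beside a bFGF term for each day and a permutation of 4 CHIR99021 pairs against 4, or a flip of signs within the 4 days. Gene positions came from RefSeq and GENCODE M21 on GRCm38, the mm10 build. The members and lists were chosen with earlier results of these data known. All 10 Frizzled genes were named, with those partners past the threshold for bFGF or CHIR99021 and a few named in advance whatever their result, and for each member the 3 genes with the highest Pearson r over the 17 libraries. Of the marker genes, 1 is not reported here and was left out of the sums. Intervals cover counting error only. Tables were handled in Python 3.11.15 with pandas 2.3.3, numpy 2.4.6 and scipy 1.17.1, and drawn with matplotlib 3.10.9.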

Additional observations from a re-analysis of the deposited data

Results flagged for a closer look

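For 8 of the 8 tested Frizzled genes the bFGF effect differed between days 1, 3, 5 and 7 by the test of that difference itself, a bFGF by day term in edgeR that 76.3% of all genes also passed. Its adjusted p was 2.44e-06 for Fzd8, 2.57e-06 for Fzd6, 2.64e-06 for Fzd5, 3.13e-06 for Fzd2 and 1.04e-05 for Fzd1. It was 0.00272 for Fzd3, 0.00306 for Fzd4 and 0.00448 for Fzd7. It was lost for Fzd3 after quantile normalization (0.119) and for Fzd7 with total count scaling (0.109) and in limma with the pseudocounts 1 (0.125) and 0.1 (0.122). The log2 fold change of Fzd7 was -0.04 on day 1 and 1.06 on day 7, and that of Fzd1 was -0.51 and -5.00. Each day's estimate rests on 2 libraries with bFGF and 2 without it. No group had the 4 libraries that a search for outlying samples needs.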

How the results depend on the processing

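The bFGF effect over all days kept its direction for the 8 tested Frizzled genes under each alternative in which they were tested, and the exact pair tests of bFGF kept their calls. A minimum of 5 FPKM left 3 of the 8 genes in the test, of which 3 passed for bFGF over all days, 2 on day 3, 3 on day 5, 3 on day 7, 3 for the bFGF by day term and 3 for day 7 against day 1 with bFGF. With a bFGF term for each day, 3 members in place of 0 passed for CHIR99021. Leaving out 1 library in turn gave 1 to 2 members past the threshold on day 1, 6 to 7 on day 3, 3 to 4 for day 7 against day 1 without bFGF and 7 to 8 with it. The lower values came without any of the 4 day 1 libraries (day 1), without BM day 3, B day 3 or C day 3 (day 3) and without B day 1 or BC day 7 (day 7 against day 1).

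Fzd7 lost its bFGF call with limma on log2(FPKM + 1) (0.21, adjusted p = 0.113) and on log2(FPKM + 0.1) (0.21, adjusted p = 0.117), as with total count scaling. Changes of sign were confined, apart from that of Fzd3 on day 5, to values that did not pass. For the CHIR99021 effect on Fzd2 (0.02) they were -0.0037 and -0.0026 in limma with the pseudocounts 1 and 0.1 and -0.0016 with a bFGF term for each day, and 0.00055 for the pairs without day 1 (-0.0037 with it). For the bFGF effect on day 1 they were -0.0033 and -0.0051 in limma for Fzd5, and after quantile normalization 0.0021 for Fzd3. Quantile normalization also gave 0.12 for Fzd3 on day 5, -0.00033 for the interaction of Fzd5, and -0.10 and -0.17 for day 7 against day 1 without bFGF in Fzd3 and Fzd4. The causes were not tested.

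Over the 16 fits without 1 library each, the CHIR99021 effect ran from -0.15 to 0.17 for Fzd2, -0.0028 to 0.17 for Fzd3 and -0.23 to 0.11 for Fzd8. The interaction ran from -0.093 to 1.20 for Fzd1, -0.11 to 0.64 for Fzd2, -0.19 to 0.32 for Fzd5, -0.15 to 0.69 for Fzd6 and -0.17 to 0.58 for Fzd8. The bFGF effect on day 1 ran from -0.055 to 0.17 for Fzd5 and -0.14 to 0.0090 for Fzd7, and day 7 against day 1 without bFGF from -0.26 to 0.48 for Fzd4 and -0.22 to 0.00048 for Fzd5.

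Over all genes, the CHIR99021 effect called 38 genes in edgeR, 22 without a filter, 24 without day 1, 72 after quantile normalization, 281 in DESeq2, 2199 with a bFGF term for each day and 1 to 28 without 1 library. The interaction called 1 gene in edgeR, 5 in DESeq2, 2 without day 1, 0 in limma and with total counts, and 78 with a bFGF term for each day. The bFGF effect on day 1 called 1203 genes, and 145 to 1778 without 1 library. A replicate block could not be fitted, since each treatment and day has 1 library and the labels give no replicate numbers. The pairs compared are libraries of the same day. Depth limits what can be said of Fzd9, with 1 to 13 expected counts per library, and of Fzd10, with at most 1.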
